A study of Mus musculus with 2 samples.

Results

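The contractile apparatus genes of mural cells, the smooth muscle cells and pericytes that wrap blood vessels, were followed across the cell types of the mouse dentate gyrus. The list held 10 genes of the 32285 in the count matrix, chosen by symbol: Acta2, Tagln, Myh11, Cnn1, Mylk, Myl9, Tpm1, Tpm2, Lmod1 and Smtn. All 10 were found, and all 10 passed the filter on low counts that left 12976 genes for testing. Droplet single-cell RNA sequencing was done at postnatal day 30 on a conditional knockout (cKO; Nestin-Cre Tg, Phf2flox/flox) and on a control (Nestin-Cre Tg, Phf2+/+), each pooled from 4 mice and each as 1 sample. Both genotypes carry the same Nestin-Cre transgene, whose promoter drives Cre in neural stem and progenitor cells. Mice were perfused with saline before the tissue was dissociated with enzymes. The matrix holds 2 libraries marked only by a barcode suffix, and nothing in the sources used here ties a suffix to a genotype. Each value is therefore listed by library, library 1 before library 2, and knockout and control are not compared.

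In smooth muscle, force comes from myosin thick filaments pulling on actin thin filaments. Acta2 encodes the alpha-actin of the thin filament and Myh11 the myosin heavy chain of the thick filament. Mylk encodes myosin light chain kinase, which starts contraction by phosphorylating the regulatory light chain, of which Myl9 encodes the smooth muscle form. Tpm1 and Tpm2 encode tropomyosins that lie along actin, Cnn1 encodes calponin, Tagln encodes transgelin (SM22), Lmod1 encodes an actin nucleator and Smtn encodes smoothelin, an actin-binding protein. In the brain, these genes are known as marks of arterial and arteriolar smooth muscle, while capillary pericytes are known for carrying far less of the apparatus. Many genes of the set are known targets of serum response factor and its partner myocardin, which act through the CArG box in promoters.

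The promoters of Acta2, Myl9 and Cnn1 are shown because the results below turn on them: Acta2 and Cnn1 separate smooth muscle from most pericytes, and Myl9 is found in both. They are RefSeq windows of build GRCm38.p6 that run from 250 bases before to 50 bases after the annotated start, written 5' to 3' on the gene's strand, with CArG boxes in capitals, counting those with 1 G or C among the 6 central A or T bases. The Acta2 window lies at chr19:34255324-34255623 on the minus strand, the Myl9 window at chr2:156775214-156775513 on the plus strand and the Cnn1 window at chr9:22099003-22099302 on the plus strand.
Acta2: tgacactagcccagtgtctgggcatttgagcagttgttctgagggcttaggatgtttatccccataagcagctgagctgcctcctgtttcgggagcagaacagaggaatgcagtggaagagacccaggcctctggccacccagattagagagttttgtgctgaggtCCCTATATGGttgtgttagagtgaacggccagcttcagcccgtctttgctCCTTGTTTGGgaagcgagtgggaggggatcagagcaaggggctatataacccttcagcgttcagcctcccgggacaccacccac
Myl9: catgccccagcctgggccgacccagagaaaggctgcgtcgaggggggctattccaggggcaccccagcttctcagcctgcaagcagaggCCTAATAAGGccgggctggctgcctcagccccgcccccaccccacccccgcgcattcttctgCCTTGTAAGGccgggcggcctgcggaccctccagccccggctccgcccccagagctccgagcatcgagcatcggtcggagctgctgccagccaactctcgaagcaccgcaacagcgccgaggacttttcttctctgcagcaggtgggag
Cnn1: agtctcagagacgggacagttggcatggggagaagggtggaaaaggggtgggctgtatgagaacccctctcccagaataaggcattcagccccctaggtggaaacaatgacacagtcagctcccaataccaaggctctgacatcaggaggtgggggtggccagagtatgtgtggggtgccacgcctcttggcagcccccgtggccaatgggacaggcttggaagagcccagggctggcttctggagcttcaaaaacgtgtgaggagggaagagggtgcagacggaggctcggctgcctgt

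RefSeq windows were matched for 8 of the 10 genes, all but Tagln and Myh11. Myl9 holds 1 full CArG box, CCTAATAAGG, which begins 161 bases before the start, and 1 with a changed base, CCTTGTAAGG, 99 bases before it. Acta2 holds 2 boxes with a changed base, CCCTATATGG at 84 bases and CCTTGTTTGG at 34 bases before the start. The windows of the other 6 matched genes hold neither form. The Mylk window, chr16:34784700-34784999, lies inside the gene, which spans chr16:34745210-35002420 on the plus strand. The Smtn window, chr11:3539243-3539542, also lies inside its gene, chr11:3517523-3540612 on the minus strand. Both windows thus sit at an internal start, and the outermost starts of these 2 genes were not searched. A full CArG box occurs in 1.629% of all 32851 promoter windows of this length, and the form with a changed base in 8.499%. The MCAT motif, CATTCC on either strand, occurs in 5 of the 8 windows against 14.66% of all windows, and the E-box, CANNTG, in 7 of the 8 against 72.31%. A match describes letters in the window and is not a measured binding site.

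After filtering and removal of doublets, 8029 cells remained in library 1 (median 8092 UMIs, molecules counted once by their unique identifier) and 8129 in library 2 (median 7232). Clusters were formed without the 10 genes and without 38 other contractile genes, and were named from separate markers. Names such as smooth muscle-like rest on those markers alone. The smooth muscle-like class had 191 cells in library 1 and 127 in library 2, the pericyte-like class 151 and 153, the fibroblast-like class 46 and 44, the endothelial-like class 870 and 849, and the neural classes together 3005 and 3523. Median UMIs per cell were 11412 and 10746 in smooth muscle-like cells, 5159 and 5298 in pericyte-like cells, and between 5601.5 and 9418 in the other classes. All 12 smooth muscle markers and all 12 pericyte markers were found in their own class in both libraries. Endothelial markers, summed over 10 genes, stood at 5629 and 6557 CPM (the class's counts scaled by its total) in pericyte-like cells, against 42.3 and 40.3 CPM in smooth muscle-like cells. Their part in the pericyte values was not tested beyond a refit without the mural and fibroblast-like cells that held them. Clusters low and high in these markers are given separately below. Of the barcodes kept, 23 had the same sequence in both libraries, where chance alone would give 10.2.

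Together the 10 genes took up 6.27% of all UMIs in smooth muscle-like cells of library 1 and 6.04% in library 2. In pericyte-like cells they took up 0.403% and 0.473%, in fibroblast-like cells 0.0503% and 0.0684%, in endothelial-like cells 0.0512% and 0.0503%, and in neural cells 0.0115% and 0.0128%. Free RNA, read from barcodes with fewer than 100 UMIs, held 0.116% and 0.106%. The share in neural, endothelial-like and fibroblast-like cells was below that of the free RNA, and the levels of single genes in free RNA and in microglia are given beside the low values further on. Among the 17 named classes, the smooth muscle-like class had the highest mean level for all 10 genes, and the pericyte-like class came next for 9 of them. For Smtn, the endothelial-like class came next and the pericyte-like class after it.

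**Figure D1:**
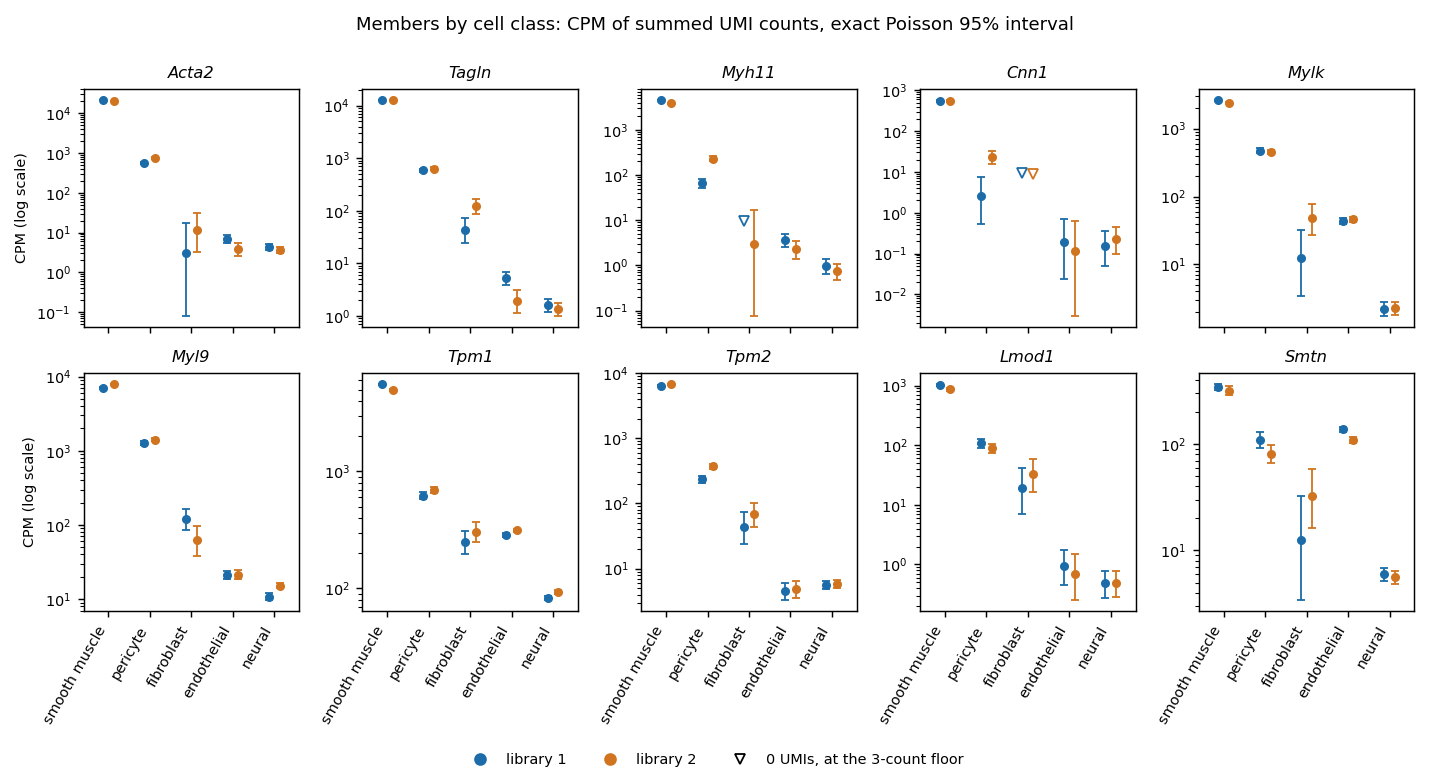
Each panel shows 1 gene, with CPM on a log axis in smooth muscle-like, pericyte-like, fibroblast-like, endothelial-like and neural cells; points are libraries and bars are exact Poisson 95% intervals, which cover counting error only. The smooth muscle-like points lie above those of every other class in all 10 panels, while the order of the other classes differs between genes such as Smtn, Tpm1 and Cnn1.

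The first comparison asks how far smooth muscle-like cells stand above pericyte-like cells, the other mural class. All 10 genes were higher in smooth muscle-like cells, where 14.1% of all tested genes were called higher and 19.8% lower. The median log2 fold change was 4.09 over the 10 genes and -0.13 over all genes tested. All calls come from edgeR's quasi-likelihood test on UMI sums per class and library, with Benjamini-Hochberg adjustment over all tested genes and a threshold of 0.05. The classes were built from other genes of the same cells, and the p-values rest on how far a class difference varied between these 2 libraries, not on mice.

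Of the thin-filament genes, Acta2 stood at 21617 CPM in library 1 and 19843 CPM in library 2 in smooth muscle-like cells, against 562 and 745 CPM in pericyte-like cells. Both smooth muscle-like libraries stood above both pericyte-like libraries, and the fold change was 37.4 (log2 5.22 ± 0.26 SE, adjusted p = 8.52e-09). Tpm2 stood at 6413 and 6740 CPM in smooth muscle-like cells, against 234 and 369 CPM in pericyte-like cells (log2 4.72 ± 0.20 SE). Tpm1 stood at 5535 and 4969 CPM, against 620 and 693 CPM in pericyte-like cells (log2 3.25 ± 0.17 SE). The same order of classes held in both libraries for both tropomyosins. Lmod1 stood at 1041 and 872 CPM in smooth muscle-like cells, against 108 and 88.3 CPM in pericyte-like cells, a log2 fold change of 3.54 ± 0.15 SE.

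Of the actin-binding regulators, Cnn1 stood at 550 and 553 CPM in smooth muscle-like cells, against 2.58 and 23.5 CPM in pericyte-like cells. Its log2 fold change was 5.59 ± 0.32 SE (adjusted p = 4.59e-08), and it was 7.90 in library 1 alone and 4.77 in library 2 alone. Only 3 Cnn1 UMIs were counted over the pericyte-like cells of library 1 and 32 over those of library 2, so the size of this difference differed between libraries while its direction did not. Tagln stood at 12866 and 12814 CPM in smooth muscle-like cells, against 587 and 628 CPM in pericyte-like cells (log2 4.65 ± 0.34 SE). Smtn, at 346 and 317 CPM against 109 and 81.0 CPM in pericyte-like cells, differed by a log2 fold change of 2.06 ± 0.17 SE.

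Of the thick-filament genes, Myh11 stood at 4591 and 3934 CPM in smooth muscle-like cells, against 65.4 and 233 CPM in pericyte-like cells. Its log2 fold change was 5.15 ± 0.41 SE, 6.40 in library 1 alone and 4.31 in library 2 alone. Myl9 stood at 7085 and 7904 CPM in smooth muscle-like cells, against 1268 and 1416 CPM in pericyte-like cells (log2 2.73 ± 0.20 SE). Mylk stood at 2610 and 2413 CPM, against 474 and 456 CPM in pericyte-like cells (log2 2.68 ± 0.20 SE). The regulatory light chain and its kinase thus differed between the mural classes by 6.62-fold and 6.42-fold, and the heavy chain by 35.6-fold.

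**Figure D2:**
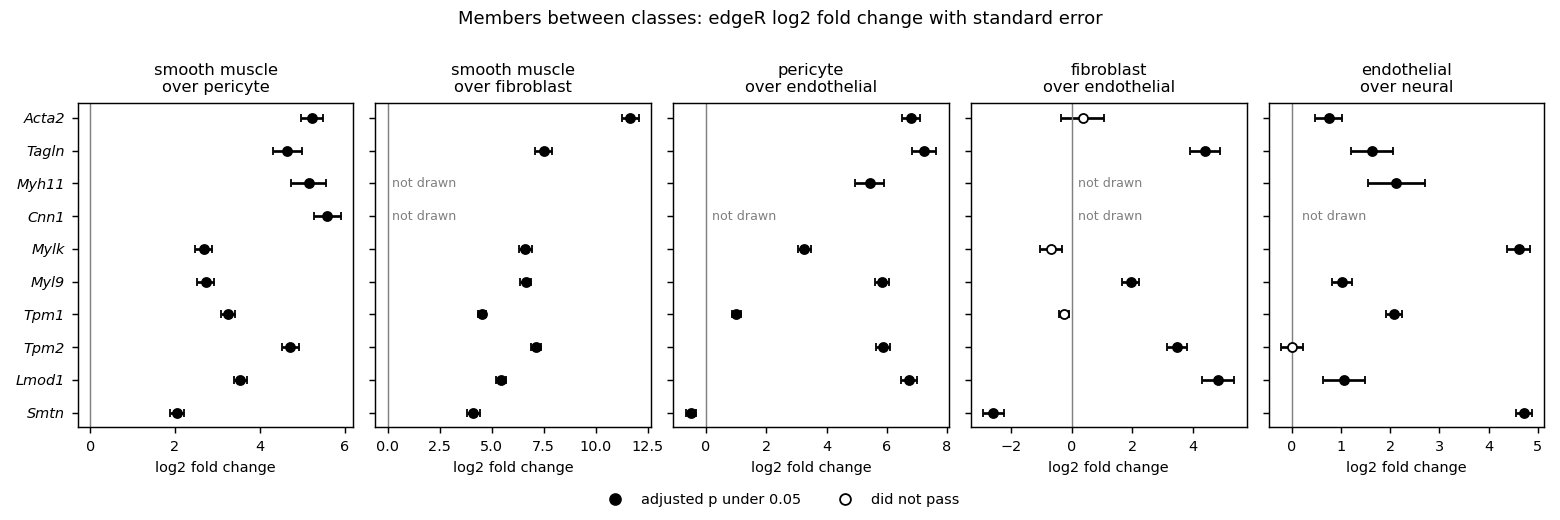
Each panel shows 1 comparison of classes, with the edgeR log2 fold change on the x axis, bars of 1 standard error, filled points for adjusted p under 0.05 and open points for those that did not pass; "not drawn" marks pairs with 3 or fewer UMIs in a class. All drawn points lie right of 0 in both smooth muscle panels, while Smtn lies left of 0 in the pericyte and fibroblast panels.

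Per cell, the set was detected broadly in smooth muscle-like cells. With each cell thinned to 1000 UMIs, a smooth muscle-like cell held a median of 8 of the 10 genes in both libraries, and a median of 62 and 61 UMIs of the set. At least 5 of the genes were found in 99.0% and 98.4% of smooth muscle-like cells, against 6.62% and 5.23% of pericyte-like cells. Acta2 was found in 99.0% and 99.2% of thinned smooth muscle-like cells, 9.93% and 5.88% of pericyte-like cells, and 0.651% and 0.365% of microglia, which should lack the gene and had median depths of 7821 and 6893 UMIs. Without thinning, Acta2 was found in 99.0% of smooth muscle-like cells of library 1 and all of library 2, and in 15.2% and 15.7% of pericyte-like cells. Cnn1 and Smtn, the genes found least often, were in 28.8% and 26.8%, and in 25.1% and 24.4%, of thinned smooth muscle-like cells. Across smooth muscle-like cells, the 45 pairs of genes had Pearson correlations between 0.27 and 0.88 in library 1 (median 0.52) and between 0.30 and 0.89 in library 2 (median 0.43). These are descriptions over cells that share a library.

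Smooth muscle-like cells formed 4 clusters, although the 10 genes had no part in the clustering. Cluster m1 (46 cells in library 1, 37 in library 2) was led by Rgs5 and Olfr558, m0 (79 and 52) had Rasl11a and Crispld2 among its leading genes, m3 (43 and 21) had Pln, the regulator of the sarcoplasmic calcium pump, and m5 (23 and 17) had Ptgis and Eln, which encodes elastin. Since clusters come from the same cells, their differences are described without a test. Cnn1 stood at 85.1 and 103 CPM in m1, 371 and 269 in m0, 684 and 661 in m3, and 1380 and 1623 in m5. The exact Poisson 95% intervals of the 4 clusters did not meet in either library. Smtn followed the same order, with 181 and 154 CPM in m1, 311 and 245 in m0, 399 and 415 in m3, and 537 and 576 in m5. Acta2 stood at 13084 and 11130 CPM in m1, 20519 and 19219 in m0, 24928 and 25681 in m3, and 28271 and 25823 in m5, so that m3 and m5 were close together in library 2. Tpm2 stood at 4146 and 4009 CPM in m1 and at 10102 and 9696 CPM in m5.

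Mylk and Myl9 did not share that order in full. Mylk was highest in m3, with 3161 and 2825 CPM, against 2608 and 2666 CPM in m5. Myl9 in library 2 was also higher in m3 (9374 CPM) than in m5 (8434 CPM), while in library 1 both clusters stood close together (7710 and 7748 CPM). Myh11 in m5 was above m3 in library 2 (5283 and 3968 CPM) but below it in library 1 (4491 and 5604 CPM). Pericyte markers, summed over 12 genes, moved the other way along the clusters. They stood at 12438 and 14999 CPM in m1, 3120 and 3206 in m0, 897 and 1073 in m3, and 125 and 128 in m5. In m1 they were above the summed smooth muscle markers (5070 and 4580 CPM), which stood between 4097 and 5546 CPM in the other 3 clusters. The 12 pericyte markers include Rgs5, which led m1, and its share of the sum is not given here. Fibroblast markers were at 363 and 520 CPM in m1 and at 1571 and 1152 CPM in m5. The part of these markers in the order of the clusters was not tested. Of the other contractile genes, Actg2, the gamma-actin typical of visceral smooth muscle, stood at 25.5 and 36.3 CPM in m1, 74.7 and 80.5 in m0, 267 and 320 in m3, and 468 and 531 in m5. Myocd, which encodes myocardin, ranged from 60.4 to 147 CPM over the 4 clusters.

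**Figure D3:**
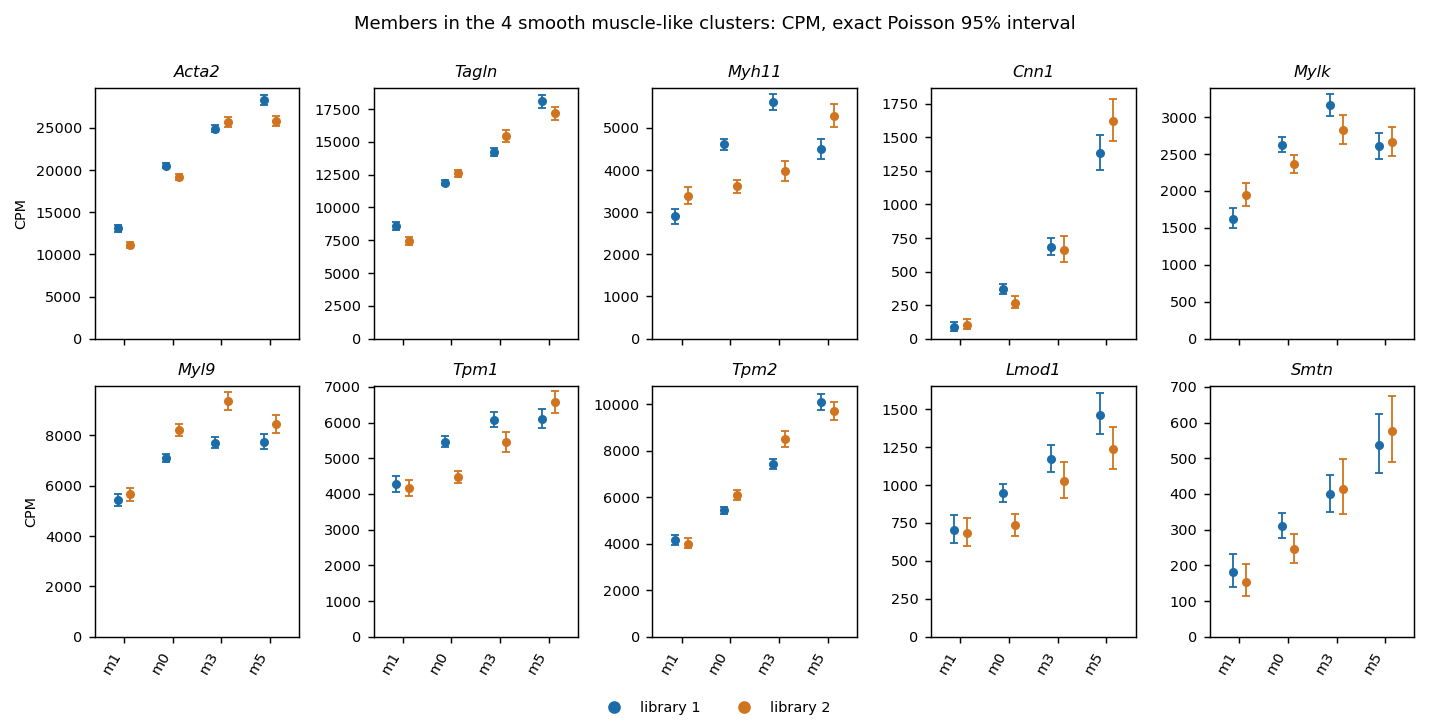
Each panel shows 1 gene, with CPM from 0 on the y axis in the smooth muscle-like clusters m1, m0, m3 and m5; points are libraries and bars are exact Poisson 95% intervals. Cnn1, Smtn and Tpm2 climb through the 4 clusters in both libraries, while Mylk peaks in m3.

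Among pericyte-like cells, the low class level of Acta2 came from a few cells. Acta2 was found in 23 of 151 cells of library 1 and in 24 of 153 cells of library 2. The 11 and 9 cells that held 10 or more Acta2 UMIs carried 95.3% and 97.6% of the Acta2 UMIs of the class. Tagln was spread the same way, with 94.4% of its UMIs in 14 cells of library 1 and 94.4% in 13 cells of library 2. Myl9 was different: it was found in 97.4% and 99.3% of pericyte-like cells, and Mylk in 91.4% and 83.7%. In microglia, Myl9 was found in 2.19% and 1.86% of cells and Mylk in 0.685% and 0.850%, at greater median depth.

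The pericyte-like clusters split along these lines. Cluster m2 (85 cells in library 1, 78 in library 2) was led by Vtn, Atp13a5 and Abcc9 and had endothelial markers at 614 and 555 CPM. Acta2 there stood at 5.43 and 9.20 CPM, from 2 and 3 UMIs, and Tagln at 10.9 and 9.20 CPM. Myl9 in m2 stood at 1929 and 1889 CPM and Mylk at 538 and 463 CPM. Cluster m6 (28 and 22 cells), led by Ccl19 and Anxa1, had Acta2 at 2297 and 1035 CPM, Tagln at 2535 and 1579 CPM and Lmod1 at 419 and 326 CPM. Endothelial markers in m6 were at 327 and 505 CPM, and 0 Cnn1 UMIs were counted there in either library, which allows up to 14.6 CPM in library 1 and 19.2 CPM in library 2. Myh11 in m6 stood at 112 and 128 CPM.

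Cluster m8 (34 and 46 cells) held endothelial markers at 11352 and 10752 CPM beside its pericyte markers at 13044 and 12174 CPM. Its Acta2 stood at 1.97 CPM in library 1 and at 469 CPM in library 2, where 2 cells held 348 of the 349 UMIs. Cluster m9 held 4 and 7 cells, with Acta2 at 2186 and 3765 CPM. Tagln stood at 1930 and 2692 CPM in m9 and at 1.97 and 333 CPM in m8, where 2 cells of library 2 held all 248 of its UMIs. Summed over cells, Acta2 and Tagln were thus high in m6 and m9 and low in m2 in both libraries. In m9, 2 cells held all 179 Acta2 and all 158 Tagln UMIs of library 1. In library 2, 2 cells held 407 of its 498 Acta2 UMIs. In m6, Acta2 was found in 64.3% and 63.6% of cells, and 2 cells held 220 of 471 and 125 of 162 UMIs. Markers of other cell types differed between these clusters too. Fibroblast markers were at 2789 and 2627 CPM in m6 and 3127 and 537 CPM in m9, against 1497 and 1539 CPM in m2. In m9, endothelial markers were at 5960 and 4922 CPM and smooth muscle markers at 794 and 1716 CPM. In m6, smooth muscle markers were at 322 and 473 CPM, against 1185 and 997 CPM in m2. This sum also stood at 746 and 852 CPM in venous endothelial-like cells, where 8 and 6 of the 12 markers had 0 UMIs. A few shared genes can thus carry it, and it does not rank m2 and m6 by smooth muscle content. The part of these markers in the Acta2 and Tagln levels was not tested. Myl9 was at 1726 and 2212 CPM in m6, close to m2, and lower in m8 with 626 and 801 CPM.

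**Figure D4:**
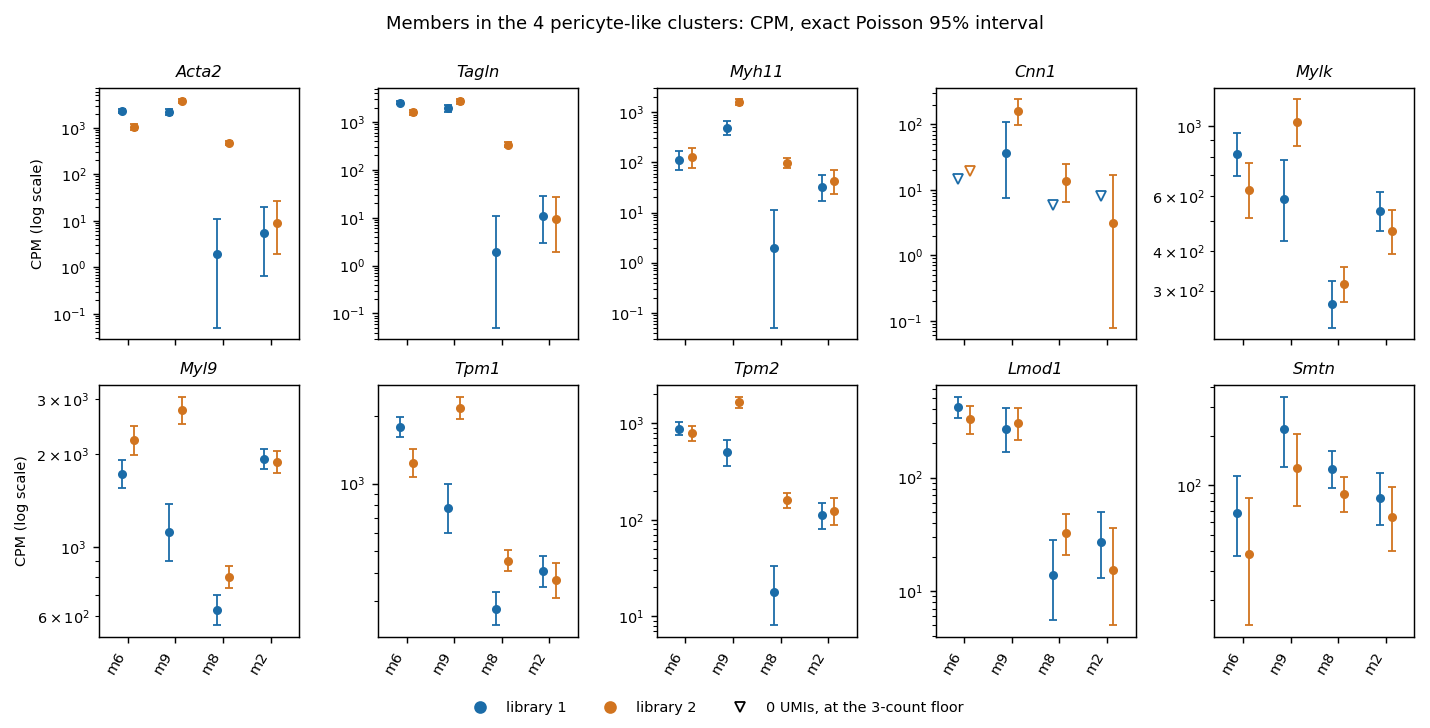
Each panel shows 1 gene, with CPM on a log axis in the pericyte-like clusters m6, m9, m8 and m2; points are libraries, bars are exact Poisson 95% intervals and open triangles mark 0 UMIs at the floor of 3 counts. Acta2 and Tagln lie above 1000 CPM in m6 and m9 and below 11 CPM in m2, while Myl9 stands at 1929 and 1889 CPM in m2.

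With the pericyte class limited to m2, a choice made after seeing the data, all 10 genes were still higher in smooth muscle-like cells, where 12.8% of genes were called higher. The low Acta2 and Tagln of m2 had been seen before this choice, so their larger folds follow from it and are no separate result. With m2, the log2 fold change of Acta2 was 11.93 ± 0.34 SE and that of Tagln 10.75 ± 0.49 SE. Mylk was at 2.75 ± 0.21 SE and Myl9 at 2.40 ± 0.19 SE. These SEs do not cover the choice of m2. The differences of Mylk and Myl9 were thus close to those over all pericyte-like cells, and those of Acta2 and Tagln were larger by over 1.5 times. The same held for Myh11 (7.26 ± 0.25 SE), Tpm2 (6.24 ± 0.19 SE), Lmod1 (5.91 ± 0.25 SE) and Tpm1 (4.18 ± 0.18 SE). Cnn1 had 1 UMI in m2, so no fold is given for it, and Smtn was at 2.58 ± 0.21 SE.

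The second comparison sets smooth muscle-like cells against fibroblast-like cells, the non-mural stromal class. All 10 genes were higher in smooth muscle-like cells, where 13.7% of all tested genes were called higher. The median log2 fold change was 6.88 over the 10 genes, against -0.0004 over all genes. Acta2 in fibroblast-like cells stood at 3.14 and 11.9 CPM, from 1 and 4 UMIs, and its log2 fold change was 11.66 ± 0.41 SE (13.04 in library 1 alone, 10.85 in library 2 alone). Tagln in fibroblast-like cells stood at 44.0 and 122 CPM (log2 7.50 ± 0.42 SE; 8.57 and 6.88 in library 1 and library 2 alone). Myl9 stood at 119 and 62.5 CPM (log2 6.63 ± 0.26 SE) and Tpm2 at 44.0 and 68.4 CPM (log2 7.13 ± 0.25 SE). No fibroblast-like library reached a smooth muscle-like one for any of these genes.

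Cnn1 had 0 UMIs in fibroblast-like cells of both libraries. Against the floor of 3 counts over the class, it was at least 120-fold higher in smooth muscle-like cells. Myh11 had 1 UMI over both fibroblast-like libraries, and its ratio was 2837 with a 95% counting interval from 509 to 112049. Mylk, at 12.6 and 47.6 CPM in fibroblast-like cells, had a log2 fold change of 6.62 ± 0.30 SE (8.05 and 5.83 in library 1 and library 2 alone). Lmod1, at 18.8 and 32.7 CPM, had 5.46 ± 0.23 SE (6.15 and 4.90), and Smtn, at 12.6 and 32.7 CPM, had 4.11 ± 0.30 SE (5.14 and 3.44). Tpm1 differed by 4.51 ± 0.19 SE, with 248 and 304 CPM in fibroblast-like cells. Fibroblast-like sums were the shallowest of the 5 classes, with 318323 and 336041 UMIs, which limits the precision of every value in them.

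The third comparison sets pericyte-like against endothelial-like cells, which share the capillary wall. Of the 10 genes, 9 were higher in pericyte-like cells and Smtn was lower, where 16.0% of all genes were called higher and 15.2% lower. The median log2 fold change was 5.86 over the 10 genes, against -0.03 over all genes. Myl9 stood at 1268 and 1416 CPM in pericyte-like cells and at 21.3 and 21.4 CPM in endothelial-like cells (log2 5.85 ± 0.23 SE, adjusted p = 2.94e-10). Mylk stood at 474 and 456 CPM, against 43.3 and 45.9 CPM in endothelial-like cells (log2 3.26 ± 0.21 SE). For both genes, each pericyte-like library stood above each endothelial-like library. Lmod1 stood at 108 and 88.3 CPM in pericyte-like cells, against 0.954 and 0.690 CPM (log2 6.74 ± 0.25 SE), and Tpm2 at 234 and 369 CPM, against 4.49 and 4.83 CPM (log2 5.87 ± 0.23 SE).

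Acta2 in endothelial-like cells stood at 6.87 and 3.80 CPM, with a log2 fold change for pericyte-like cells of 6.81 ± 0.30 SE (6.17 in library 1 alone, 7.48 in library 2 alone). Tagln stood at 5.25 and 1.96 CPM there (7.23 ± 0.41 SE; 6.61 and 8.13 in library 1 and library 2 alone) and Myh11 at 3.63 and 2.30 CPM (5.44 ± 0.48 SE; 3.96 and 6.48). Cnn1, with 35 UMIs over both pericyte-like libraries and 3 over both endothelial-like ones, had a ratio of 88.7 with a 95% counting interval from 28.0 to 451, and its fitted log2 fold change was 2.77 in library 1 alone and 6.23 in library 2 alone. Its 3 pericyte-like UMIs of library 1 came from 1 of 151 cells. In library 2, 2 of 153 cells held 31 of the 32 UMIs. The counting interval does not cover this spread between cells, and the Cnn1 level does not describe the class as a whole. When only the m2 cluster stood for pericytes, 5 genes were higher (Myh11, Mylk, Myl9, Tpm2 and Lmod1), where 13.1% of genes were called higher, and Smtn was lower, where 19.1% were called lower. The log2 fold changes of Acta2 (0.13 ± 0.58 SE), Tagln (1.15 ± 0.85 SE) and Tpm1 (0.08 ± 0.16 SE) then did not pass, nor did that of Cnn1, with 1 UMI in m2. Since m2 was chosen with its low Acta2 and Tagln seen, the loss of their calls follows from that choice and is no separate result.

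Tpm1 and Smtn stood closest between pericyte-like and endothelial-like cells. Tpm1 was at 620 and 693 CPM in pericyte-like cells and at 288 and 313 CPM in endothelial-like cells (log2 1.00 ± 0.16 SE, adjusted p = 0.000236). Smtn was at 109 and 81.0 CPM in pericyte-like cells and at 138 and 110 CPM in endothelial-like cells, lower in pericyte-like cells by a log2 fold change of -0.51 ± 0.17 SE (adjusted p = 0.0312). The classes did not overlap for Smtn, but the higher pericyte-like library (109.2 CPM) and the lower endothelial-like one (109.8 CPM) were almost equal. That edgeR call of Smtn was lost with total-count scaling (adjusted p = 0.0720), without the library block (0.0720), with DESeq2 (0.133) and with marked doublets kept (0.388), and over the other alternatives its adjusted p ran from 8.48e-05 to 0.0369. The call of Tpm1 was lost with a mitochondrial limit of 10%, with a log2 fold change of 0.45 (adjusted p = 0.0693), and in the m2 comparison above.

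The fourth comparison sets fibroblast-like against endothelial-like cells. Tagln, Myl9, Tpm2 and Lmod1 were higher in fibroblast-like cells, Smtn was lower and the other 5 did not pass, where 15.3% of all genes were called higher and 17.6% lower. The median log2 fold change was 0.06 over the 10 genes and -0.12 over all genes. Tagln, at 44.0 and 122 CPM in fibroblast-like cells against 5.25 and 1.96 CPM in endothelial-like cells, had a log2 fold change of 4.38 ± 0.50 SE (2.77 in library 1 alone, 5.82 in library 2 alone). Its fibroblast-like level came from few cells, with 14 and 41 UMIs in 10.9% and 9.09% of cells, beside 1.64% and 1.01% of microglia, and after thinning it was found in 0% and 4.55% of fibroblast-like cells. Lmod1, at 18.8 and 32.7 CPM against 0.954 and 0.690 CPM, had 4.81 ± 0.53 SE (3.82 and 5.22). Tpm2 had 3.46 ± 0.32 SE and Myl9 1.94 ± 0.27 SE. Each fibroblast-like library stood above each endothelial-like library for these 4 genes.

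Smtn stood at 12.6 and 32.7 CPM in fibroblast-like cells, against 138 and 110 CPM in endothelial-like cells (log2 -2.57 ± 0.33 SE; -3.70 in library 1 alone, -1.75 in library 2 alone). Mylk, at 12.6 and 47.6 CPM against 43.3 and 45.9 CPM, did not pass (log2 -0.68 ± 0.37 SE, adjusted p = 0.191), and was at -2.03 in library 1 alone and 0.04 in library 2 alone. Without fibroblast-like cells that held endothelial markers, Mylk was called lower, at -2.26 ± 0.42 SE, and likewise without the filter on low counts, at -0.79 ± 0.30 SE. Smtn stayed called lower in both of these settings. Endothelial markers were at 160 and 1292 CPM in fibroblast-like cells, so the library with more of them was also the one with more Mylk and Smtn. Beyond the refit without such cells, their part in the Smtn values was not tested. Pericyte markers stood at 7401 and 5910 CPM in fibroblast-like cells.

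The fifth comparison sets endothelial-like cells against neural cells. Of the 10 genes, 8 were higher in endothelial-like cells, 0 were lower and Cnn1 and Tpm2 did not pass, where 36.3% of all genes were called higher and 39.6% lower. The median log2 fold change was 1.34 over the 10 genes and -0.05 over all genes. Smtn, at 138 and 110 CPM in endothelial-like cells against 5.97 and 5.601 CPM in neural cells, had a log2 fold change of 4.72 ± 0.16 SE (adjusted p = 9.96e-12). Mylk, at 43.3 and 45.9 CPM against 2.20 and 2.27 CPM, had 4.61 ± 0.24 SE, and Tpm1, at 288 and 313 CPM against 82.7 and 92.9 CPM, had 2.08 ± 0.16 SE. For these 3 genes each endothelial-like library stood above each neural one.

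The other called genes were at low levels on both sides. Acta2 stood at 6.87 and 3.80 CPM in endothelial-like cells, against 4.34 and 3.62 CPM in neural cells (log2 0.74 ± 0.28 SE), and 6.10 and 3.53 CPM in microglia. The class ranges overlapped. Tagln stood at 5.25 and 1.96 CPM, against 1.60 and 1.35 CPM in neural cells (1.63 ± 0.43 SE; 1.93 in library 1 alone, 0.71 in library 2 alone). Myh11 stood at 3.63 and 2.30 CPM, against 0.965 and 0.747 CPM (2.12 ± 0.58 SE), and Lmod1 at 0.954 and 0.690 CPM, against 0.482 and 0.488 CPM (1.06 ± 0.42 SE). Free RNA held 363 and 297 CPM of Acta2, 178 and 171 CPM of Tagln, 82.8 and 79.5 CPM of Myh11 and 17.1 and 14.6 CPM of Lmod1. In thinned cells, Acta2 was found in 1.15% and 0.707% of endothelial-like cells and 0.832% and 0.539% of neural cells, beside 0.651% and 0.365% of microglia.

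With 5% of each sum taken away as free RNA, 4 genes were called higher in endothelial-like cells (Mylk, Myl9, Tpm1 and Smtn), where 34.2% of genes were called higher. Without the endothelial-like cells that held mural markers, also 4 were called higher (Tagln, Mylk, Tpm1 and Smtn), where 35.4% were. This second setting was not planned beforehand, and it took out no neural cells. Acta2, Myh11 and Lmod1 passed in neither setting. In the second one the log2 fold changes of Myl9 (-0.29) and Lmod1 (-0.02) turned in sign and did not pass. Mylk, Tpm1 and Smtn were called higher in endothelial-like cells in both. The calls of Acta2 and Lmod1 were also lost with total-count scaling and DESeq2, and those of Tagln and Lmod1 with marked doublets kept.

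Within the endothelial-like class, Mylk was uneven. It stood at 96.7 and 121 CPM in the pooled cells of 2 arterial clusters (209 and 124 cells), 51.8 and 108 CPM in the venous cluster (33 and 27 cells), and 24.0 and 26.5 CPM in all other endothelial-like cells. Tpm1 stood at 317 and 307 CPM in arterial cells, 224 and 276 CPM in venous cells and 286 and 316 CPM in the other cells. Smtn stood at 132 and 104 CPM in arterial cells, 192 and 137 CPM in venous cells and 134 and 109 CPM in the other cells, so that venous cells were highest in both libraries. Acta2 in arterial cells stood at 16.7 and 7.25 CPM, above the 4.05 and 3.07 CPM of the other cells, and was found in 9.09% and 5.65% of arterial cells without thinning, beside 5.21% and 2.51% of microglia. These clusters are described without a test.

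In neural cells, Tpm1 made up 72.0% and 72.4% of all UMIs of the set in neural cells. It was highest in granule neurons, with 418 and 371 CPM, and in oligodendrocyte precursors (OPC), with 250 and 343 CPM. In the other 7 neural classes it stood between 38.5 and 95.3 CPM, below the 135 and 149 CPM of free RNA. Thinned, Tpm1 was found in 40.8% and 24.8% of granule neurons and in 20% and 32.1% of OPC, against 2.19% and 1.78% of microglia. Tpm1 also makes forms outside muscle by alternative splicing, which 3' counts do not tell apart.

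Myl9 was highest among neural classes in radial glia-like cells (RGL), the stem cells of the dentate gyrus, with 60.2 and 78.3 CPM, against 7.91 and 12.04 CPM in astrocytes. Thinned, it was found in 6.45% and 6.80% of RGL, 1.04% and 1.01% of astrocytes and 0.103% and 0.284% of microglia. Free RNA held 152 and 142 CPM of Myl9, and microglia 2.65 and 2.61 CPM. RGL had 1.06 and 2.20 CPM of Mylk and 5.57 and 3.59 CPM of Acta2. Smtn was highest among neural classes in cycling cells, with 34.9 and 33.8 CPM, where the other neural classes stood at 6.20 CPM or less, and Tpm2 also had its highest neural level there, with 13.5 and 21.7 CPM. Without thinning, Smtn was found in 29.5% and 29.2% of cycling cells and in 1.27% and 0.729% of microglia. Cycling cells were deeper, with medians of 16653 and 15431 UMIs against 7821 and 6893 in microglia, so these shares are not at equal depth. Thinned, Smtn was found in 2.76% of cycling cells of library 1. For Myl9 in RGL and Smtn in cycling cells, both libraries stood above both libraries of every other neural class.

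**Figure D5:**
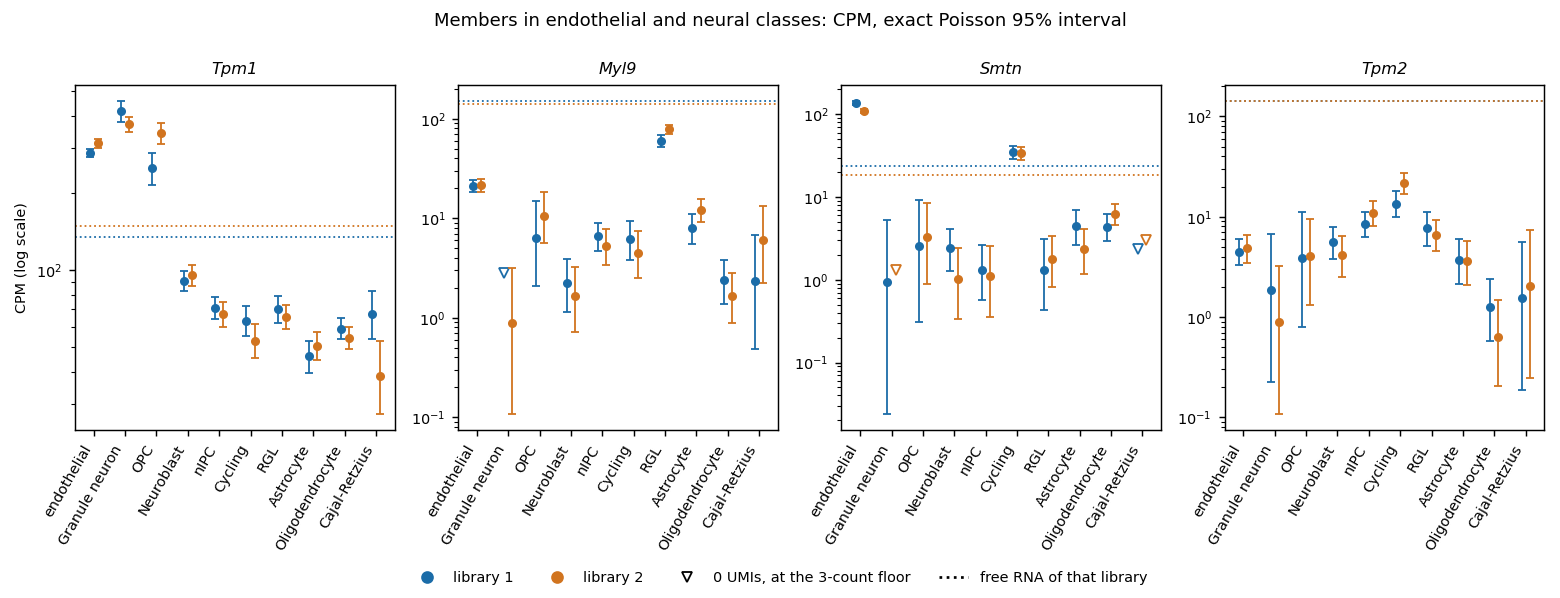
Each panel shows 1 gene, with CPM on a log axis in endothelial-like cells and in 9 neural classes; points are libraries, bars are exact Poisson 95% intervals, open triangles mark 0 UMIs at the floor of 3 counts and dotted lines mark free RNA. Tpm1 is high in granule neurons and OPC, Myl9 in RGL and Smtn in cycling cells.

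The 38 other contractile genes, of which 36 passed the filter, set the members in their pathway. Between smooth muscle-like and pericyte-like cells, 14.1% of all tested genes were called higher and 19.8% lower. Of the 36, 26 were higher, 8 were lower and 2 did not pass, with a median log2 fold change of 1.25. Those with the smallest adjusted p that were higher were Ppp1r12b (log2 4.10), a myosin phosphatase subunit, Actn1 (3.38), which encodes an alpha-actinin, Actg2 (5.21), Flna (3.06), which encodes filamin A, Myl6 (2.63), the essential light chain, and Des (2.76), which encodes desmin. Those that were lower were led by nonmuscle myosin and cytoplasmic tropomyosin genes: Myh9 (-2.34), Myl12b (-1.49), Tpm4 (-1.10), Tpm3 (-1.15), Myl12a (-0.95) and Mrtfb (-1.57), which encodes a myocardin-related cofactor. Endothelial markers stood at 5629 and 6557 CPM in pericyte-like cells. Myl12b (-0.92), Tpm4 (-0.45), Tpm3 (-0.97) and Mrtfb (-1.55) were lower in pericyte-like than in endothelial-like cells. Myh9 was higher there (0.62) and Myl12a did not pass (-0.22). The part of endothelial RNA in these pericyte-like levels was not tested. Myh9, the nonmuscle heavy chain, stood at 112 and 126 CPM in smooth muscle-like cells, against 758 and 665 CPM in pericyte-like cells, the opposite side from Myh11. Myocd stood at 140 and 105 CPM in smooth muscle-like cells, against 7.74 and 7.36 CPM in pericyte-like cells (log2 4.25 ± 0.27 SE).

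Between smooth muscle-like and fibroblast-like cells, 1783 of all 12976 tested genes were called higher and 1813 lower. Of the 36, 26 were higher, 2 were lower (Tpm3 and Myl12b) and 8 did not pass. Actn1 (4.70), Ppp1r14a (4.90), Myl6 (3.48), Ppp1r12b (5.44), Flna (4.38) and Des (6.52, all log2) had the smallest adjusted p. Between pericyte-like and endothelial-like cells, 16.0% of all tested genes were called higher and 15.2% lower. Of the 36, 15 were higher, 8 lower and 13 did not pass. Ppp1r14a (5.87), an inhibitor of myosin phosphatase, Cald1 (4.50), which encodes caldesmon, Des (4.92), Cacna1c (5.32) and Kcnmb1 (6.88), channel subunits, and Itga8 (6.36) led the higher ones, and Mrtfb (-1.55), Actg1 (-1.07), Tpm3 (-0.97), Myl12b (-0.92), Myh10 (-0.80) and Ppp1cb (-0.62) the lower ones. Cald1 stood at 3392 and 2941 CPM in pericyte-like cells and at 3793 and 3615 CPM in smooth muscle-like cells.

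Between fibroblast-like and endothelial-like cells, 15.3% of all tested genes were called higher and 17.6% lower. Of the 36, 4 were higher (Cald1, Itga8, Ppp1r14a and Cacna1c), 16 were lower and 16 did not pass. The lower ones were led by Myl12b (-1.86), Actg1 (-1.58), Tpm4 (-1.74), Mrtfb (-2.65), Actb (-1.13) and Tpm3 (-1.38). Between endothelial-like and neural cells, 36.3% of all tested genes were called higher and 39.6% lower. Of the 36, 27 were higher, 4 lower (Ppp1r14a, Cacna1c, Ppp1r12b and Csrp1) and 5 did not pass. Cnn2 (7.73), Myl12a (3.87), Tpm4 (3.84), Myh9 (4.76), Actn1 (3.07) and Mrtfb (2.97) led the higher ones. Cnn2, Tpm4 and Myh9 are nonmuscle relatives of Cnn1, Tpm2 and Myh11.

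The genes most like the set were found among 8313 genes by their Pearson correlation with the mean of the 10, over 17 classes and on log2(CPM + 10). They were Des (r = 0.994), Susd2 (0.986), C1s1 (0.984), Aoc3 (0.982), Kcnmb1 (0.978), Dhx58os (0.975), Pde3a (0.972) and Hrc (0.971). Aoc3 was itself a marker used to name smooth muscle-like cells. Des stood at 713 and 697 CPM in smooth muscle-like cells and at 120 and 126 CPM in pericyte-like cells. Pde3a, which encodes a phosphodiesterase, stood at 583 and 582 CPM and at 109 and 102 CPM. The correlations describe these classes, whose points share libraries, and carry no test.

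Positions are from GENCODE M21 on GRCm38, with all 10 genes protein-coding. Acta2 (ENSMUSG00000035783) lies at chr19:34241090-34255590, Myl9 (ENSMUSG00000067818) at chr2:156775420-156781658 and Cnn1 (ENSMUSG00000001349) at chr9:22099216-22109630. Tagln (ENSMUSG00000032085; chr9:45929619-45936058) overlaps Pcsk7 and Gm48529 on the other strand, and Mylk and Smtn also overlap annotated genes on the other strand. Tagln, Mylk and Smtn overlap no annotated gene on their own strand. No source used here states whether counting was by strand, and whether reads of the other-strand neighbours entered their counts was not tested. The exact Poisson intervals of the 2 libraries were apart in 21 of the 170 pairs of gene and class, and what sets the libraries apart cannot be told apart from genotype, mice and preparation.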

How the data were processed

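Single-cell RNA libraries of the dentate gyrus (10x 3' chemistry, per the labels' protocols) were deposited by the authors as 1 unfiltered matrix of raw UMI counts. Cell Ranger 4.0.0, Scanpy 1.7.0 and mm10 are named per the submitters' processing notes. The suffixes of the barcodes gave 2 libraries (102897659 and 107266420 UMIs). The labels give 1 sample per genotype with no replicate and tie no suffix to a genotype, so cKO was not compared with control. The genes and lists were chosen with earlier results of these data known.

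Barcodes with at least 1000 UMIs, 500 genes and at most 20% mitochondrial UMIs were kept, and 226 and 252 doublets marked by Scrublet were removed. Cells were clustered with scanpy 1.11.5 (2975 variable genes, 40 components, 15 neighbours, Leiden resolution 1) without contractile, mitochondrial and sex genes and Phf2, and mural and endothelial cells were reclustered. A name needed at least 3 of its markers in 25% of cells; how markers were scored was set after seeing the data, and 603 and 461 cells stayed unnamed. Counts were summed over 5 classes in each library and tested 2-sided with edgeR 4.0.16 (R 4.3.3; TMM scaling, library as a block, 4 residual degrees of freedom, Benjamini-Hochberg adjustment). On data simulated for smooth muscle-like against pericyte-like cells, 92 of 100 genes changed 2-fold and 100 of 100 changed 4-fold were recovered, with 16 false calls among 208, over 11142 genes. All simulated classes had the pericyte-like profile, with 1 common spread and changes only in genes over a minimum level. Real class differences are wider, so recovery among them or near the floor was not measured. Intervals are exact Poisson 95% intervals and, like floors of 3 counts, cover counting error only. All 10 genes are named, with the 6 other contractile genes of smallest adjusted p in each direction and the 8 genes most like the set. Genes singled out beyond this rule, and cluster m2, were chosen after their values were seen. The refit without endothelial-like cells holding mural markers was also not planned beforehand. Alternatives were total-count scaling, no filter on low counts, DESeq2 1.42.0, other limits on cells, other clusterings, 5% free RNA subtracted and each library alone.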

Additional observations from a re-analysis of the deposited data

How the results depend on the processing

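Both comparisons of smooth muscle-like cells kept all 10 calls and directions under every alternative that used both libraries. With 1 library alone there is no test, and all 10 directions were kept. Between pericyte-like and endothelial-like cells, 0 genes were lower with total-count scaling, DESeq2, no library block or doublets kept, against 1 in the reported fit. Over all tested genes, 1530, 1788 and 1882 of 12976 and 967 of 13363 were called lower there, against 1971 of 12976 as reported. With m2 alone, chosen after seeing the data, 5 were higher, where 13.1% of all genes were called higher. Between fibroblast-like and endothelial-like cells, 2 were lower without the low-count filter or without cells holding endothelial markers. Over all tested genes, 2657 of 22788 and 2216 of 12971 were called lower in these settings. Between endothelial-like and neural cells, 4 were higher with free RNA subtracted or without cells holding mural markers, where 34.2% and 35.4% of genes were called higher. In the second setting, which was not planned beforehand, Myl9 (-0.29) and Lmod1 (-0.017) turned in sign. The cause was not tested.

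The summed CPM of the 10 genes was 58925 in smooth muscle-like cells with at least 2000 UMIs, 57674 with doublets kept and 64384 with free RNA subtracted, against 61507 as reported. In pericyte-like cells it was 3068 with a 10% mitochondrial limit, 2974 with doublets kept and 5197 without cells holding endothelial markers, against 4380. In endothelial-like cells it was 518.0, 526 and 497 with at least 2000 UMIs, doublets kept and free RNA subtracted, against 508. In neural cells it was 95.8 with free RNA subtracted, against 122.

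Total-count scaling moved the median log2 fold change of all genes by more than 0.1 in each comparison, to -0.38, -0.24, 0.09, 0.009 and -0.36 in the order reported. It called 1230 genes higher and 3694 lower between smooth muscle-like and pericyte-like cells (1832 and 2568 as reported), 1239 and 2347 between smooth muscle-like and fibroblast-like cells (1783 and 1813), 2441 and 1530 between pericyte-like and endothelial-like cells (2080 and 1971), 2246 and 1921 between fibroblast-like and endothelial-like cells (1988 and 2281), and 3524 and 6428 between endothelial-like and neural cells (4713 and 5135). Class comparisons had the library as a block. Between genotypes, no paired analysis was possible because the labels give each genotype 1 sample and no library carries a genotype. Fibroblast-like sums had the fewest UMIs of the 5 classes.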

Other observations

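The mural clusters m4 (22 cells in library 1, 37 in library 2) and m7 (11 and 8) were given no name, since endothelial markers stood close to their mural markers, at 13880 and 14693 CPM in m4 and at 12411 and 11748 CPM in m7. The 10 genes took up 0.0975% and 0.107% of UMIs in m4 and 0.896% and 0.912% in m7. Smooth muscle markers in m7 were at 2050 and 2020 CPM. In choroid plexus cells, Acta2 stood at 22.6 CPM in library 1 and 29.6 CPM in library 2. These levels came from few cells, with 6 UMIs in 6.90% of 29 cells and 203 UMIs in 4.42% of 339 cells, beside 5.21% and 2.51% of microglia.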
